A study of Rattus norvegicus with 10 samples.

Results

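Kng2 and Serpina3n encode a pair of protease inhibitors that the rat liver secretes in the acute phase response, and their RNA was followed over the first day after a burn. The members were the genes whose probe sets carried Kng2 or Serpina3n as their single gene symbol in the array's probe table. That rule found 2 of the 4737 genes with such a probe set, each on 1 probe set: K02814_at for Kng2 (rat chromosome 11) and D00753_at for Serpina3n (rat chromosome 6). Both were among the 3143 genes that passed the filter on low values. Total RNA of rat liver had been hybridised to 10 arrays in 5 groups of 2: control rats with a sham procedure (their label reads 0 h) and burned rats at 1, 4, 8 and 24 h. The labels used here give no strain, sex, age or size of burn, nor do they state if both arrays of a group hold RNA of different animals. The p-values therefore reflect array-to-array spread, and that spread may be technical. Values are intensities on a linear scale, and the number of arrays limits their precision.

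T-kininogen, the product of Kng2, is a plasma glycoprotein of the rat with cystatin domains that block cysteine proteases such as the lysosomal cathepsins. It also carries the sequence of T-kinin, a peptide related to bradykinin, and it is one of the main acute phase proteins of the rat. Serpina3n belongs to the serpins, which trap serine proteases by a conformational change, and to the family of human alpha-1-antichymotrypsin; the mouse protein inhibits granzyme B and neutrophil elastase. Hepatocytes are the main source of both proteins. Interleukin-6, signalling through gp130 and STAT3, C/EBP factors and glucocorticoids are known regulators of acute phase genes in this cell.

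The promoters of both genes are shown because interleukin-6 acts on acute phase genes through STAT and C/EBP sites. The sequences are RefSeq's on build GRCr8, 250 bases before to 50 after the annotated start, on the plus strand, at chr11:91418220-91418519 for Kng2 and chr6:129088142-129088441 for Serpina3n. Capitals mark matches, on either strand, to a STAT motif (TTCNNNGAA) or to a C/EBP motif (TTNNGNAAT, TTNNGNAAG, TGNNGNAAT or TGNNGNAAG).
Kng2: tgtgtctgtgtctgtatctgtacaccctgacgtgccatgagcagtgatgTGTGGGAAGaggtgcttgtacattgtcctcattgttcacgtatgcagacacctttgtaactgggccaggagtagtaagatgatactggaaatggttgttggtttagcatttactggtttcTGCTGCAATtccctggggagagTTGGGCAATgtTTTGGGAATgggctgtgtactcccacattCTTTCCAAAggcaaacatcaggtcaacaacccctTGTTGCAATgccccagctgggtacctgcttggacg
Serpina3n: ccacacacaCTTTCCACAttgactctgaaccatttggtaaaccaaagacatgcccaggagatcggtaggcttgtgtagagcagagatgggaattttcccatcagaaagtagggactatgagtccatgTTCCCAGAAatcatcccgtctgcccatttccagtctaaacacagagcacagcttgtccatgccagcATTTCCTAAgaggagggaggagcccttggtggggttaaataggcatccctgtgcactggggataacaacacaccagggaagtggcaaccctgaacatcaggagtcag
The Kng2 window held 6 C/EBP matches, the last of them after the annotated start, and 0 STAT matches. The Serpina3n window held 2 C/EBP matches and 1 STAT match, at -123 to -115 counted from 0 at the first annotated base. The STAT match overlapped 1 match to the type 2 interleukin-6 element CTGGGAA on the other strand, an element with 0 matches in the Kng2 window. Among 33469 rat promoter windows of the same length, 8.87% held the STAT motif, 45.4% a C/EBP motif and 11.3% the type 2 element. A match describes letters only. The shares count windows with at least 1 match, and how many windows held 6 C/EBP matches was not counted.

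Kng2 and Serpina3n lie beside relatives in the genome, and stretches of the relatives' promoter windows are shown because they let the letters around the matches be compared. The stretches were not compared with the probes, whose sequences were not used. In RefSeq, Kng1 comes directly before Kng2 and Kng2l1 directly after it, and Serpina3j, Serpina3a, Serpina3c and Serpina3l come before Serpina3n. The first 3 stretches span 39 bases around 1 C/EBP match, in capitals, at chr11:91418471-91418509 (plus strand) for Kng2, chr11:91340264-91340302 (minus strand) for Kng1 and chr11:91483288-91483326 (plus strand) for Kng2l1.
Kng2: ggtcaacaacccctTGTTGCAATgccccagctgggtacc
Kng1: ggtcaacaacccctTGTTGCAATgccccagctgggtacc
Kng2l1: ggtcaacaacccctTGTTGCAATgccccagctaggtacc
Kng1 shared 39 of 39 bases with Kng2 here and Kng2l1 shared 38. The next 3 stretches span 60 bases around the STAT match of Serpina3n, in capitals where the STAT letters are present, at chr6:129088253-129088312 (plus strand) for Serpina3n, chr6:129063061-129063120 (plus strand) for Serpina3l and chr6:128836925-128836984 (minus strand) for Serpina3m.
Serpina3n: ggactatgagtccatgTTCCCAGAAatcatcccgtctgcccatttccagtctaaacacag
Serpina3l: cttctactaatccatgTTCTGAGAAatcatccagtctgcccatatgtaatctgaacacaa
Serpina3m: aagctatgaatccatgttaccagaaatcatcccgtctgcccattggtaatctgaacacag
Serpina3l shared 45 of 60 bases with Serpina3n (75.0%) and kept the STAT letters, whereas Serpina3m shared 50 of 60 (83.3%) and did not hold them. The annotated starts differ between relatives: the shared C/EBP match lies at 15 to 23 in Kng2, at -140 to -132 in Kng1 and at -117 to -109 in Kng2l1. The Kng2 stretch thus lies after its annotated start, in sequence annotated as transcribed. Bases further downstream are therefore in the windows of Kng1 and Kng2l1 and not in that of Kng2. There, the Kng1 window held 1 type 2 element (-82 to -76) and no STAT match, and the Kng2l1 window held 1 STAT match (-61 to -53) that overlapped 1 type 2 element (-59 to -53).

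The RNA had the markers of liver. Of 18 hepatocyte markers, 17 were on the array and all 17 were tested, and their summed intensity ran from 483029 to 544769 in sham, 472877 to 529832 at 1 h, 406640 to 480646 at 4 h, 530373 to 539580 at 8 h and 488051 to 508193 at 24 h. Median intensity per array lay between 100.1 and 131.1. In bulk tissue, fewer cells of a type and less RNA per cell cannot be told apart.

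Kng2 RNA did not pass the test against sham at 1 or 4 h, reached its highest level at 8 h and was still above sham at 24 h. Its intensity was 14989.4 and 14404.2 in sham, 12869.9 and 12563.2 at 1 h, 15289.6 and 17905.5 at 4 h, 51714.6 and 59728.2 at 8 h, and 27759.5 and 30951.9 at 24 h. Both 8 h arrays lay above every other array, and both 24 h arrays lay above those of sham, 1 h and 4 h. The means were 14696.8 ± 414, 12716.6 ± 217, 16597.6 ± 1850, 55721.4 ± 5670 and 29355.7 ± 2260 from sham to 24 h (SD, n = 2 each). The arrays of a group differed by 2.41% to 15.8% of their mean.

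Against sham, Kng2 rose 3.78-fold at 8 h (log2 change 1.92, SE 0.16, 95% interval 1.53 to 2.3, limma adjusted p = 0.00367). It rose 1.99-fold at 24 h (log2 change 1.0, SE 0.16, interval 0.61 to 1.38, limma adjusted p = 0.012). At 1 h the log2 change was -0.21 (interval -0.59 to 0.18, limma adjusted p = 0.692) and at 4 h it was 0.17 (interval -0.21 to 0.56, limma adjusted p = 0.687). The 4 comparisons share the sham arrays. Of the 5285 tested probe sets, 0.795% were called higher and 0.643% lower at 1 h, 2.37% higher and 1.99% lower at 4 h, 1.55% higher and 1.95% lower at 8 h, and 3.94% higher and 6.34% lower at 24 h. The median log2 change over all tested probe sets was -0.1 at 8 h and -0.044 at 24 h. The 24 h call ended without sham array 1 (log2 change 1.03, adjusted p = 0.0525), without sham array 2 (0.97, adjusted p = 0.0657) and without 24 h array 2 (0.92, adjusted p = 0.072). With only the 2 groups compared in the model, the log2 change was the same and the adjusted p was 0.145 at 8 h and 0.0863 at 24 h.

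The increase in Kng2 lay between 4 and 8 h. From one time to the next, the log2 change was 0.38 at 4 h against 1 h (limma adjusted p = 0.276) and 1.75 at 8 h against 4 h, a 3.36-fold rise (interval 1.36 to 2.13, limma adjusted p = 0.00144). At 24 h Kng2 was 1.9-fold lower than at 8 h (log2 change -0.92, interval -1.31 to -0.54, limma adjusted p = 0.0138). Of all tested probe sets, 5.0% were called in either direction at 4 h against 1 h, 8.29% at 8 h against 4 h and 11.8% at 24 h against 8 h. The last call ended without 8 h array 2 (log2 change -0.82, adjusted p = 0.0741), 24 h array 1 (-0.84, adjusted p = 0.0799) or 24 h array 2 (-1.0, adjusted p = 0.0551). With only the 2 groups compared, the adjusted p was 0.0575 for 8 h against 4 h and 0.0896 for 24 h against 8 h. The moderated F test over the 4 burn times gave an adjusted p of 0.00105 for Kng2, and 15.3% of the tested probe sets were called by it.

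Another probe set of the same accession, K02814_g_at, lists Kng1, Kng2l1 and Kng2 together and is given by its ID. Its intensity was 10512.4 and 10338.7 in sham, 7470.4 and 7415.0 at 1 h, 10895.9 and 12704.8 at 4 h, 39311.2 and 46412.9 at 8 h, and 23779.3 and 28125.4 at 24 h. As on K02814_at, both 8 h arrays were above all others and both 24 h arrays came next. It rose 4.1-fold at 8 h (log2 change 2.03, limma adjusted p = 0.00367) and 2.48-fold at 24 h (1.31, limma adjusted p = 0.00516). At 1 h its log2 change was -0.49 (limma adjusted p = 0.309) and at 4 h 0.17 (limma adjusted p = 0.699). Its 8 h and 24 h calls against sham were kept with each array left out in turn. The log2 values of the kininogen probe sets correlated at r = 0.988 over the 10 arrays, which they share. RNA of Kng1, Kng2 and Kng2l1 cannot be told apart on K02814_g_at, and how far K02814_at separates them was not tested.

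Serpina3n RNA had another time course, with high levels at 4 h and 24 h and a lower one between them. Its intensity was 7422.6 and 7623.0 in sham, 8722.1 and 8614.4 at 1 h, 20338.7 and 24065.6 at 4 h, 16598.5 and 14902.0 at 8 h, and 31974.2 and 32059.2 at 24 h. Every array from 4 h on lay above every sham and 1 h array, and both 24 h arrays were the highest. The means from sham to 24 h were 7522.8 ± 142, 8668.2 ± 76.2, 22202.2 ± 2640, 15750.2 ± 1200 and 32016.7 ± 60.1 (SD, n = 2 each). The arrays of a group differed by 0.265% to 16.8% of their mean.

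Against sham, Serpina3n rose 2.94-fold at 4 h (log2 change 1.56, SE 0.15, 95% interval 1.19 to 1.92, limma adjusted p = 0.00188). It rose 2.09-fold at 8 h (log2 change 1.06, SE 0.15, interval 0.7 to 1.43, limma adjusted p = 0.0198) and 4.26-fold at 24 h (log2 change 2.09, SE 0.15, interval 1.73 to 2.45, limma adjusted p = 0.000567). The 1 h arrays were above the sham arrays, but the log2 change of 0.2 did not pass the test (interval -0.16 to 0.57, limma adjusted p = 0.674). The F test over the burn times gave an adjusted p of 0.000855. The 8 h call ended without either sham array (log2 changes 1.04 and 1.08, adjusted p = 0.0957 and 0.0846) and without either 8 h array (0.99 and 1.14, adjusted p = 0.0853 and 0.0724). With only the 2 groups compared, the adjusted p was 0.0699 at 4 h and 0.181 at 8 h, and the 24 h call was kept (adjusted p = 0.0395).

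Between neighbouring times, Serpina3n rose 2.55-fold at 4 h against 1 h (log2 change 1.35, interval 0.99 to 1.72, limma adjusted p = 0.0035). It rose 2.04-fold at 24 h against 8 h (log2 change 1.03, interval 0.66 to 1.39, limma adjusted p = 0.0077). At 8 h against 4 h the log2 change was -0.49 (interval -0.86 to -0.13) and did not pass the threshold (limma adjusted p = 0.107), although both 8 h arrays were below both 4 h arrays. The dip was called with quantile normalization (log2 change -0.7, adjusted p = 0.0376), with no filter on low values (-0.49, adjusted p = 0.0401) and with an intensity trend (-0.49, adjusted p = 0.0118). With 1 array left out, the log2 change of the dip ran from -0.61 to -0.37. With only the 2 groups compared, the adjusted p was 0.0817 for 4 h against 1 h, 0.311 for 8 h against 4 h and 0.0674 for 24 h against 8 h.

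**Figure D1:**
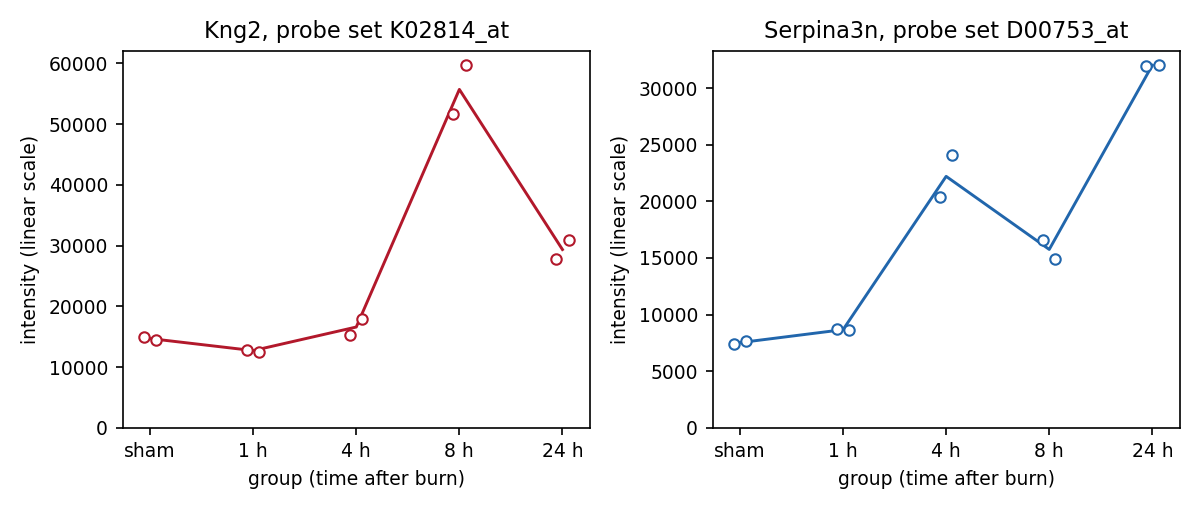
Linear intensity of Kng2 (K02814_at, left) and Serpina3n (D00753_at, right) on every array, by group from sham to 24 h after the burn. Points are arrays and lines join the means of the 2 arrays; Kng2 peaks at 8 h, with arrays at 51714.6 and 59728.2, and Serpina3n is highest at 24 h, with arrays at 31974.2 and 32059.2.

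Ordered by level, Serpina3n ran 24 h, 4 h, 8 h, 1 h and sham, and Kng2 ran 8 h, 24 h, 4 h, sham and 1 h. The arrays of neighbouring groups in either order did not overlap, but the same arrays set the order. The share of all tested probe sets without such overlap was not computed. For Kng2, the lower 4 h array (15289.6) was just above the higher sham array (14989.4), a pair that did not pass the test. For Serpina3n, the lower 8 h array (14902.0) was well above the higher 1 h array (8722.1), a step outside the contrasts fitted. Kng2 and Serpina3n correlated at r = 0.486 over the 10 arrays. The difference between the 2 genes at a given time was not tested, and with 2 arrays against 2 the smallest two-sided exact permutation p is 0.333.

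Summed intensities of markers of other cell types also differed between the groups. Of 23 genes of the exocrine pancreas, 20 were on the array and 19 were tested. Their summed intensity was 10627 to 11066 in sham, 47812 to 50635 at 1 h, 2651 to 2737 at 4 h, 14857 to 14924 at 8 h and 2418 to 3011 at 24 h. Prss1, Prss3b, Cpb1 and Pnliprp1 were at the floor of 36.4 on both arrays at 4 h and at 24 h, and Prss2 and Pla2g1b were there at 24 h as well. Cuzd1 was at the floor in sham. The sum was thus lowest at 4 h and 24 h, where Serpina3n was highest, and highest at 1 h, where neither inhibitor passed the test. At 8 h the sum was above its sham range, and Serpina3n and Kng2 were above sham as well. The 5 tested Kupffer cell and phagocyte markers, of 9 on the array, summed to 3789 to 4238 in sham, 4013 to 4105 at 1 h, 2903 to 3004 at 4 h, 3893 to 3920 at 8 h and 2920 to 3019 at 24 h, with none at the floor on both arrays of a group. The 6 tested T and B cell markers, of 11 on the array, summed to 1221 to 1251 in sham, 1384 to 1660 at 1 h, 1274 to 1415 at 4 h, 890 to 1348 at 8 h and 1091 to 1264 at 24 h. The 11 tested markers of stellate, endothelial and bile duct cells, of 14 on the array, summed to 16715 to 20591 in sham, 18803 to 19236 at 1 h, 16147 to 16818 at 4 h, 15520 to 16592 at 8 h and 20118 to 21285 at 24 h. The part of any of these markers in the results was not tested. With the 1 h arrays left out of the model, the calls of Kng2 and Serpina3n against sham were kept. Leaving these arrays out alters only the estimate of the spread, not the log2 changes of the other groups. It therefore cannot show what part the markers have.

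Of 3 relatives of Serpina3n on the array, serpins of the same family, none was called higher than sham at any time. Few probe sets were: 0.795%, 2.37%, 1.55% and 3.94% of all tested ones at 1, 4, 8 and 24 h. Serpina3l had intensities of 27071.2 and 30786.5 in sham, 35636.5 and 40565.5 at 1 h, 25744.2 and 32072.3 at 4 h, 19934.1 and 19206.9 at 8 h, and 22595.6 and 27686.3 at 24 h. Its log2 changes against sham were 0.4, -0.01, -0.56 and -0.21 from 1 h to 24 h (limma adjusted p = 0.471, 0.993, 0.177 and 0.564), so it passed at no time. Serpina3c had 25923.9 and 21490.0 in sham, 27866.1 and 30185.2 at 1 h, 21570.6 and 18557.1 at 4 h, 21370.5 and 19490.0 at 8 h, and 22079.0 and 23546.8 at 24 h, and it also passed at no time (limma adjusted p = 0.571, 0.57, 0.563 and 0.899). Serpina3m had 3455.5 and 3950.1 in sham, 4226.7 and 4089.0 at 1 h, 4194.3 and 4158.3 at 4 h, 2861.7 and 2615.2 at 8 h, and 1900.2 and 2374.3 at 24 h. Both 24 h arrays of Serpina3m lay below both sham arrays. It was 1.74-fold lower at 24 h than in sham (log2 change -0.8, limma adjusted p = 0.0292), a call that ended without either array of sham, 1 h or 24 h (highest adjusted p = 0.148). The difference in response between Serpina3n and its relatives was not tested.

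**Figure D2:**
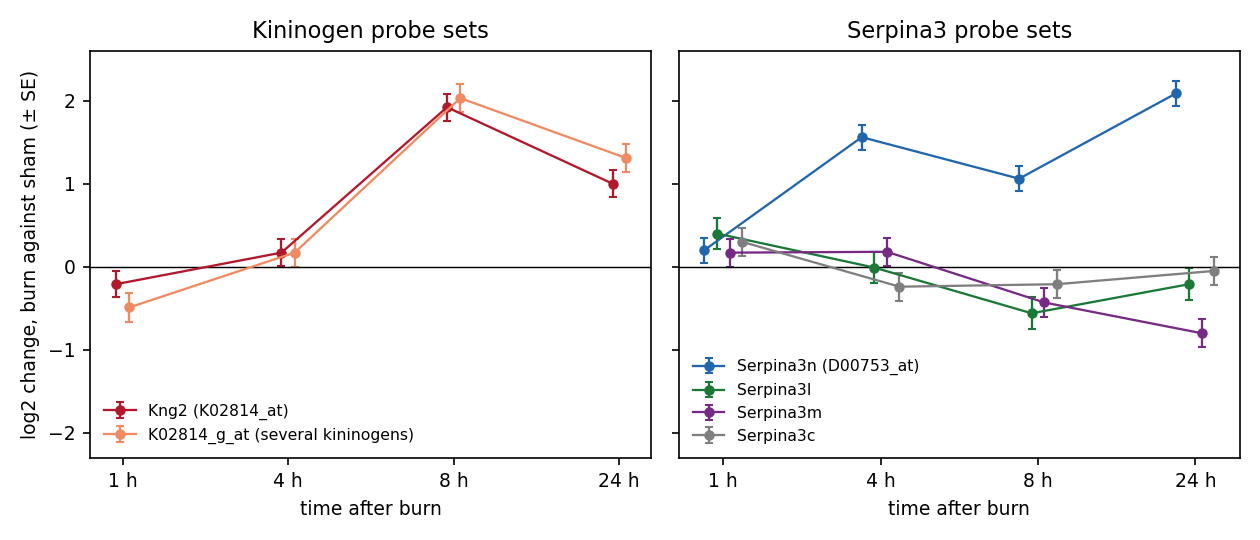
Log2 change against sham at 1, 4, 8 and 24 h after the burn for the kininogen probe sets (left) and the Serpina3 probe sets (right), with the SE of the limma model as bars (2 arrays per group). Both kininogen probe sets are highest at 8 h (1.92 and 2.03), whereas Serpina3n reaches 1.56 at 4 h and 2.09 at 24 h and Serpina3m is at -0.8 at 24 h.

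Other inhibitors of plasma proteases were called in both directions. Of 55 listed genes, 32 were on the array and 31 were tested. None was called at 1 h. The 4 h arrays had 1 higher and 1 lower, the 8 h arrays 2 higher and 1 lower, and the 24 h arrays 2 higher and 4 lower. Over all tested probe sets, 2.37% were higher and 1.99% lower at 4 h, and 1.55% higher and 1.95% lower at 8 h. At 24 h, 3.94% were higher and 6.34% lower. With 1 array left out, the count higher at 8 h was 0 to 1 and the count lower at 24 h 0 to 4. The median log2 change of the list was 0.01, -0.24, -0.04 and -0.2 from 1 h to 24 h, against 0.015, -0.037, -0.1 and -0.044 over all tested probe sets. Agt, the serpin that is the precursor of angiotensin, averaged 6137.0 in sham, 21933.1 at 4 h, 6410.2 at 8 h and 13230.8 at 24 h. It rose 3.56-fold at 4 h (log2 change 1.83, limma adjusted p = 0.00316) and 2.17-fold at 24 h (1.12, limma adjusted p = 0.0164), and at 8 h its log2 change was 0.07 (limma adjusted p = 0.895). The 4 h and 24 h levels of Agt were above its 8 h level, as they were for Serpina3n. Its 24 h call ended without sham array 1 or either 24 h array (highest adjusted p = 0.0848).

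A2m, the gene of alpha-2-macroglobulin, a large plasma inhibitor of many proteases, rose 26.1-fold at 24 h on M23566exon_s_at, to a mean of 14606.2 against 646.6 in sham (log2 change 4.7, SE 0.58, limma adjusted p = 0.00407). Its sham arrays lay far apart (323.7 and 969.5), and leaving out sham array 1 gave a 24 h log2 change of 3.91, and leaving out sham array 2 gave 5.5. At 8 h the same probe set was not called (log2 change 2.51, limma adjusted p = 0.068). Other A2m probe sets were called earlier. At 8 h, M22670cds_at (log2 change 1.82, limma adjusted p = 0.00327), M22670cds_g_at (1.82, limma adjusted p = 0.0185) and rc_AA900582_at (1.74, limma adjusted p = 0.00605) were higher than sham. M22670cds_g_at and rc_AA900582_at were higher at 4 h too (limma adjusted p = 0.0208 and 0.00846), while X13983mRNA_at was called at neither time. At 24 h these A2m probe sets had log2 changes of 1.57 to 4.31, each of them called. Mug1, a murinoglobulin related to alpha-2-macroglobulin, averaged 9390.7 in sham, 5714.2 at 4 h, 4017.0 at 8 h and 5132.2 at 24 h. It fell 1.64-fold at 4 h, 2.33-fold at 8 h and 1.83-fold at 24 h (limma adjusted p = 0.0448, 0.0109 and 0.0139). The 4 h call ended whichever array was left out (highest adjusted p = 0.2), the 8 h call without sham array 2 or 8 h array 2 (0.0646) and the 24 h call without sham array 2 or either 24 h array (0.077). Serpina10, an inhibitor of coagulation factor Xa, averaged 4745.0 at 8 h and 2204.0 in sham, a 2.15-fold rise (limma adjusted p = 0.0139). That call ended without either array of sham or 8 h (highest adjusted p = 0.0796). Serping1, the C1 inhibitor, rose 1.71-fold at 8 h (limma adjusted p = 0.0465), and the call ended whichever array was left out (highest adjusted p = 0.191). Serpina10 and Serping1 were called at 8 h, the time at which Kng2 was highest.

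Among other positive acute phase genes, 25 of 38 were on the array and 23 were tested. At 8 h, 9 were higher and none lower: C4bpa, C9, Cp, Fgb, Hp, Hpx, Lbp, Lcn2 and Orm1. At 24 h, 5 were higher and 1, Mbl2, was lower; at 4 h, 2 were higher, and at 1 h, 1. The list's median log2 change was 0.16, 0.14, 0.7 and 0.24 from 1 h to 24 h. Over all tested probe sets the median was 0.015, -0.037, -0.1 and -0.044. The count higher at 8 h was 4 to 6 with 1 array left out, that at 24 h 2 to 4, and both were 0 with only the 2 groups compared. Of all tested probe sets, 0.795%, 2.37%, 1.55% and 3.94% were higher from 1 h to 24 h. The share lower was 1.95% at 8 h, and it was 6.34% at 24 h. Orm1, which encodes the plasma transport protein orosomucoid, averaged 42565.4 at 8 h and 5336.0 in sham, an 8.01-fold rise (log2 change 3.0, limma adjusted p = 0.000986). C4bpa, an inhibitor of complement, rose 4.2-fold at 8 h (limma adjusted p = 0.00367), and Lbp, which binds bacterial lipopolysaccharide, rose 3.33-fold at 8 h (limma adjusted p = 0.00367). Orm1, C4bpa and Lbp each kept the 8 h call with any 1 array left out. Lcn2, the siderophore-binding protein lipocalin 2, averaged 4073.2 at 8 h and 64.8 in sham, a 66.2-fold difference (log2 change 6.05, limma adjusted p = 0.00367). That fold depends on the floor because 1 sham array was under it, and leaving out sham array 1 gave a log2 change of 6.81, whereas leaving out sham array 2 gave 5.29. Tat, a liver enzyme of tyrosine breakdown known to be induced by glucocorticoids, was high earlier than the others, with means of 6264.0, 13834.5, 14995.6, 8067.6 and 4369.2 from sham to 24 h. It rose 2.21-fold at 1 h (limma adjusted p = 0.012) and 2.4-fold at 4 h (limma adjusted p = 0.00316), and the 1 h call ended without either array of sham or 1 h (highest adjusted p = 0.0891).

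Of 45 listed genes of the kinin system and of proteases, 32 were on the array and 20 were tested. In the main model, none of the 20 was called higher than sham at any time. None was called lower at 1 or 4 h, 1 at 8 h and 4 at 24 h. Of all tested probe sets, 0.643%, 1.99%, 1.95% and 6.34% were lower from 1 h to 24 h. The shares called higher were 0.795%, 2.37%, 1.55% and 3.94%. With 1 array left out, the count lower at 24 h was 1 to 3, and up to 1 gene was higher at 4 h and at 24 h. Under the other settings run on all groups, up to 2 were higher for the 4 h arrays, 4 for the 8 h arrays and 2 for the 24 h arrays. The list's median log2 change was -0.03, -0.21, 0.0 and -0.23 from 1 h to 24 h. Plg, the gene of plasminogen, averaged 3268.1 at 24 h and 8892.7 in sham (log2 change -1.44, limma adjusted p = 0.00177). Klkb1, the gene of plasma kallikrein, which releases bradykinin from kininogen, averaged 1796.5 at 24 h and 3016.4 in sham (log2 change -0.75, limma adjusted p = 0.0267). That call ended without either array of sham, 1 h or 24 h (highest adjusted p = 0.132). Ctsd, the gene of the lysosomal aspartic protease cathepsin D, also fell at 24 h (log2 change -0.96, limma adjusted p = 0.0127), a call that ended without either array of sham or 24 h (highest adjusted p = 0.0694). Another Ctsd probe set, rc_AI235585_s_at, was not called there (-0.45, limma adjusted p = 0.174). Ctsl, a cysteine protease of the kind T-kininogen inhibits, gave differing probe sets. The one with the highest mean was not called (4 h log2 change 0.69, limma adjusted p = 0.071), while S85184_g_at was called higher at 4 h (1.65, limma adjusted p = 0.00188) and 24 h (1.15, limma adjusted p = 0.00708) and lower at 8 h (-0.98, limma adjusted p = 0.0275). Klk1, a tissue kallikrein, was at the floor on both arrays at 8 h and was at least 3.56-fold lower than in sham there (limma adjusted p = 0.0185). The adjusted p was 0.792 with a higher floor, and Klk1 lies in a multigene family whose probe set may read relatives.

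In the list of interleukin-6, gp130 and STAT3 signalling, 31 of 37 genes were on the array and 27 were tested. At 1 h, 1 was lower, at 4 h 1 was higher and 1 lower, and at 8 h and at 24 h 4 were lower and none higher. Over all tested probe sets, 0.643% were lower at 1 h, and 2.37% were higher and 1.99% lower at 4 h. The share lower was 1.95% at 8 h and 6.34% at 24 h, and the share higher was 1.55% and 3.94%. With 1 array left out, 0 to 3 were lower at 8 h and 2 to 4 at 24 h, and with only the 2 groups compared 0 and 2. The median log2 change was 0.15, 0.17, -0.17 and -0.08 from 1 h to 24 h. Cebpb, a C/EBP factor active in the acute phase, averaged 3507.4 at 4 h and 1731.0 in sham (log2 change 1.02, limma adjusted p = 0.0191). That call ended without either array of sham or 4 h (highest adjusted p = 0.104), and another Cebpb probe set, S77528cds_s_at, was not called at 4 h (0.52, limma adjusted p = 0.18). At 24 h Cebpb was lower (log2 change -0.7, limma adjusted p = 0.0472), a call that ended whichever array was left out (highest adjusted p = 0.2). Cebpa, the C/EBP factor of resting hepatocytes, averaged 203.7 at 24 h and 794.3 in sham (log2 change -1.96, limma adjusted p = 0.000772). Socs2, a feedback inhibitor of cytokine and growth hormone signalling, averaged 45.9 at 24 h and 330.3 in sham (log2 change -2.86, limma adjusted p = 0.00108). The 24 h calls of Cebpa and Socs2 were kept with any 1 array left out. Junb, a subunit of the AP-1 factor, was lower at 1 h (log2 change -1.57, limma adjusted p = 0.0147), and that call ended without either array of sham or 1 h (highest adjusted p = 0.106). Another Junb probe set, rc_AA891041_at, was not called at 1 h (-1.99, limma adjusted p = 0.246). Cish, another feedback inhibitor, was lower at 4 h (log2 change -1.8, limma adjusted p = 0.0163), and that call ended without either sham array or 4 h array 2 (highest adjusted p = 0.0814).

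**Figure D3:**
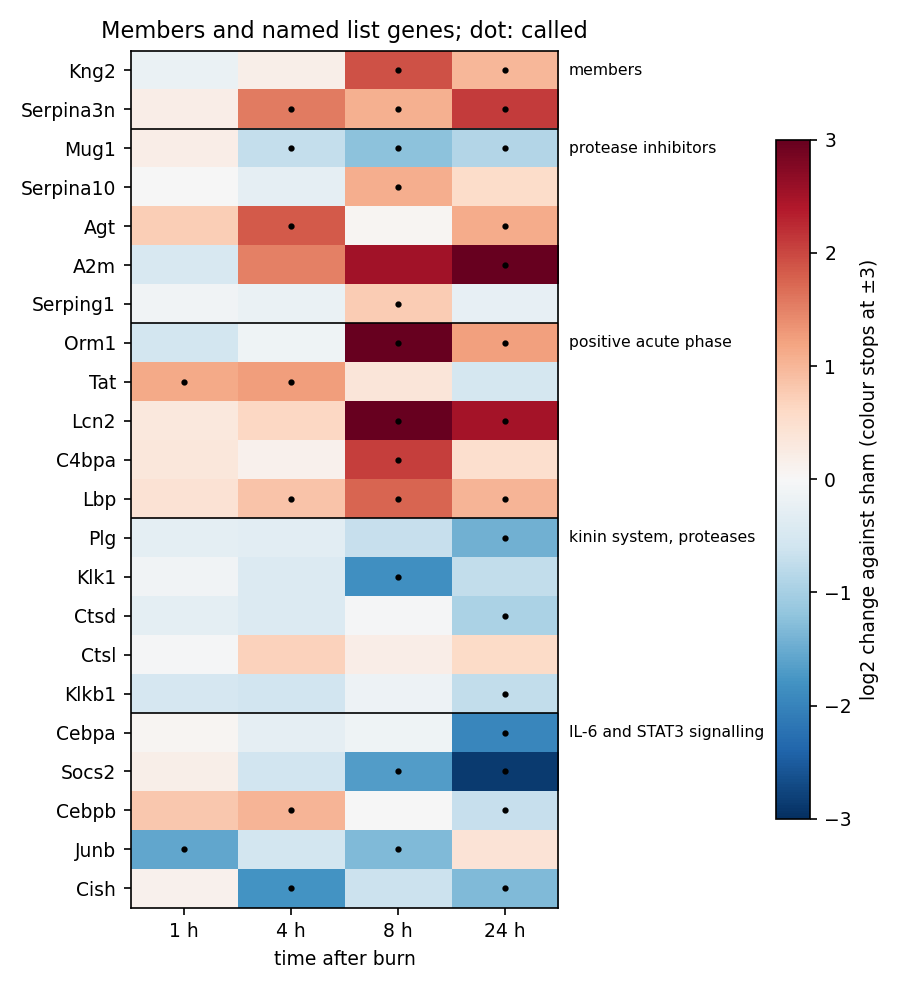
Log2 change against sham at each burn time (columns) for Kng2, Serpina3n and the 5 genes of each list that ranked first by the F test (rows), as a colour scale centred on 0 that stops at 3 in either direction; a dot marks a call. Kng2 and Orm1 are highest at 8 h, whereas Serpina3n, Agt and A2m have larger changes at 24 h than at 8 h.

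The genes most like each member were taken from 4323 tested probe sets with a single symbol, by the Pearson correlation of log2 values over the 10 arrays, which all probe sets share. For Kng2 the highest were Orm1 (r = 0.986), Cyp2c6v1, a cytochrome P450 (0.973), Lcn2 (0.957), Serpina1, the alpha-1-antitrypsin gene, on X16273cds_at (0.957) and Hpx, the heme-binding protein hemopexin (0.95). The lowest were Lipc, hepatic lipase (-0.982), and Crot, an acyltransferase of peroxisomal fatty acid oxidation (-0.949). Serpina1 on X16273cds_at had a log2 change of 1.04 at 8 h (limma adjusted p = 0.017), but its other probe sets rc_AI010453_at (0.34, limma adjusted p = 0.438) and X16273cds_g_at (0.29, limma adjusted p = 0.369) were not called. The 8 h call of X16273cds_at ended without either array of sham or 8 h (highest adjusted p = 0.0862).

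For Serpina3n the highest were Lrrc59, a protein of the endoplasmic reticulum (r = 0.968 on D13623_g_at and 0.945 on D13623_at), Slc25a3, the mitochondrial phosphate carrier (0.955), Acot7, an acyl-CoA thioesterase (0.95), and Tdo2, the liver enzyme that opens the ring of tryptophan (0.95). Tdo2 rose at 4 h (log2 change 1.78, limma adjusted p = 0.0014) and at 24 h (2.14, limma adjusted p = 0.000619), with both calls kept when any 1 array was left out. The lowest were Slc10a1, the bile acid uptake transporter of hepatocytes (-0.978), and Dusp1, a phosphatase of MAP kinases (-0.976). Slc25a3 and Slc10a1 were called against sham at 24 h only (log2 changes 0.86 and -0.67, limma adjusted p = 0.0201 and 0.0291). Dusp1 fell at 4 h (log2 change -2.52, limma adjusted p = 0.00169) and at 24 h (-4.01, limma adjusted p = 0.000274), and at 8 h its log2 change was -2.0 (limma adjusted p = 0.0102, a call that ended without either sham array, highest adjusted p = 0.0659).

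**Figure D4:**
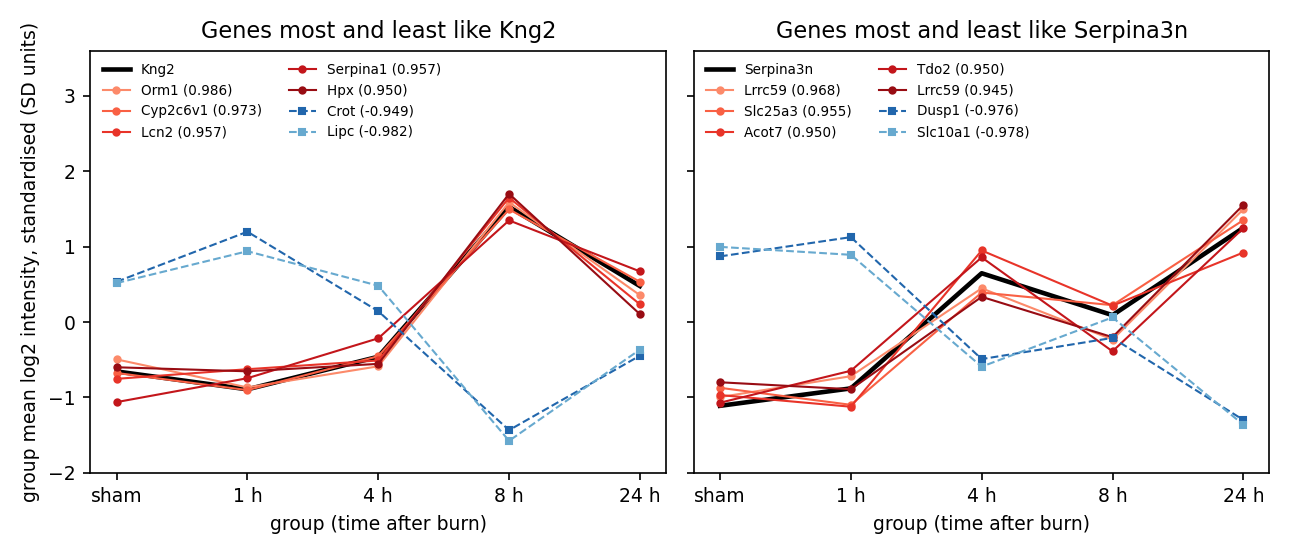
Mean log2 intensity of each group, standardised to SD units over the group means, for Kng2 (left) and Serpina3n (right). Genes of highest (solid) and lowest (dashed) correlation to each over the 10 arrays are shown with them. Orm1 (r = 0.986) follows Kng2 to its 8 h peak and Lipc (-0.982) runs opposite, whereas Tdo2 (0.95) follows the 4 h and 24 h levels of Serpina3n and Dusp1 (-0.976) runs opposite.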

How the data were processed

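Liver RNA of 10 arrays in 5 groups was analysed. The deposited values were 1 intensity per probe set and array on a linear scale, for 8799 probe sets. The authors had put the intensity values on a common scale, since the mean without 2% of the values at each end was 500.9 to 501.0 on every array. No source used here names the software that made them. A floor of 36.4, the median over arrays of the 25th percentile, replaced lower intensities before log2 was taken. Probe sets above their array's median on at least 2 arrays were tested (5285). The model held all groups (limma 3.58.1 under R 4.3.3, 5 residual degrees of freedom), with two-sided moderated tests and Benjamini-Hochberg adjustment over the tested probe sets; a call is an adjusted p under 0.05. The fit was tested on simulated data. Folds are ratios of geometric means. In list counts, the tested probe set with the highest mean stood for its gene.

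The members and lists were chosen with earlier results of these data known. Named were every probe set of the members, 5 genes per list, those ranked first by the F test, and the 5 probe sets most like and 2 least like each member. Genes outside that rule (the shared kininogen probe set, Serpina3c, Serpina3l, Serpina3m, C9, Cp, Fgb, Hp, Mbl2, other probe sets of named genes and the markers at the floor) were named after their values were seen. Promoters came from RefSeq (GRCr8) and were searched with Python 3.11.15. Proteins and probe sequences were not used here. Alternatives were quantile normalization, each array left out, the 1 h arrays left out, only the groups compared, no filter, other floors, a replicate block, and a robust variance with an intensity trend.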

Additional observations from a re-analysis of the deposited data

How the results depend on the processing

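No change of Kng2 or Serpina3n reversed under any alternative run. With only the groups compared in the model, Serpina3n kept its log2 changes of 1.56 (4 h) and 1.06 (8 h) against sham, 1.35 (4 h against 1 h) and 1.03 (24 h against 8 h), and Kng2 kept 1.92 (8 h) and 1.0 (24 h) against sham, 1.75 (8 h against 4 h) and -0.92 (24 h against 8 h), but these calls ended (adjusted p = 0.0575 to 0.181), since fewer arrays estimate the spread. The Serpina3n change at 8 h against 4 h became a call with quantile normalization (-0.7) and, at -0.49, with no filter and with an intensity trend. The cause was not tested. With only the groups compared, that change had a limma adjusted p of 0.311. With 1 array left out, log2 changes of Serpina3n ran from 0.99 to 1.14 (8 h) and 2.07 to 2.11 (24 h), and those of Kng2 from 1.82 to 2.02 (8 h), 0.92 to 1.07 (24 h) and -1.03 to -0.82 (24 h against 8 h). Quantile normalization made the Kng2 changes smaller, at 1.63 (8 h) and 0.92 (24 h) against sham. They were 1.39 at 8 h against 4 h and -0.7 at 24 h against 8 h, and the calls were kept. Serpina3n changed by 0.96 (8 h) and 2.05 (24 h) against sham under that setting.

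Counts of called probe sets moved more. At 1, 4, 8 and 24 h against sham they were 76, 230, 185 and 543, and with an intensity trend 140, 380, 377 and 830. With only the groups compared they were 0 at 1 h (574 at an unadjusted p under 0.05), 69 at 4 h, 0 at 8 h (779 unadjusted) and 104 at 24 h by limma. With the higher floor they were 133 at 1 h, 374 at 4 h and 312 at 8 h, and at 8 h also 280 with no filter and 91 without the 1 h arrays. With 1 array left out they ran from 29 to 75, 125 to 222, 43 to 107 and 216 to 482. Between neighbouring times they were 264, 438 and 621, with only the groups compared 89, 70 and 167, and with 1 array left out 113 to 236, 182 to 383 and 254 to 572. The trend gave 428 (4 h against 1 h) and 683 (8 h against 4 h), and the higher floor 401 (4 h against 1 h). The F test called 811, with the trend 1261 and with 1 array left out 446 to 642.

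With the replicate block, the calls of both genes were kept (Kng2 at 8 h, log2 change 1.92, adjusted p = 0.00822) and 72, 240, 156 and 583 probe sets were called against sham. Of the other named genes, Mug1 at 4 h (-0.71, adjusted p = 0.0582), Serping1 at 8 h (0.77, adjusted p = 0.0571) and Cebpb at 24 h (-0.7, adjusted p = 0.0584) lost their calls with the block. Deviations of same-numbered arrays from their group means correlated at 0.0111 to 0.17 in 10 pairs of groups, 5 of them over 0.1. Each array thus correlated better with its own number than with the other, a hint from the data only, and the arrays were not treated as paired. Of 54 calls of other named probe sets, 21 were kept with each array left out, 46 ended with only the groups compared and 0 reversed. The F test could not be run with only the groups compared, nor the 1 h comparisons without the 1 h arrays.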
